A study of Mus musculus with 104 samples.

Results

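The genes described here make, package, recapture, break down and sense dopamine. They are Th, Ddc, Gch1, Qdpr, Slc6a3, Slc18a2, Maoa, Maob and Drd2, taken by symbol, 9 of the 45808 gene rows in the count table, and all 9 are described whatever their values. They were measured in 104 libraries, each made from 1 mouse substantia nigra neuron drawn into a patch pipette, with 38 libraries titled experiment and 66 titled control. All libraries carry the same labels for tissue, substantia nigra, and for cell type, dopaminergic neuron. The series' design text describes picking neurons with α-Syn-6H-EGFP inclusions (a construct named for α-synuclein and enhanced green fluorescent protein) from the pars compacta, in slices cut after tribromoethanol anaesthesia and perfusion of the mice. It does not state which neurons served as controls, and no genotype, strain, age, vector or animal is named for any library, so what separates the groups beyond their titles is known only that far. Because no animal is named, each group was treated as 1 sample, no p-value was computed, and the spread over neurons stands beside each value.

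Dopaminergic neurons make dopamine from tyrosine in a pair of steps. Tyrosine hydroxylase, the product of Th, adds a hydroxyl group to form L-DOPA and is the rate-limiting enzyme, and aromatic amino acid decarboxylase, the product of Ddc, turns L-DOPA into dopamine. Tyrosine hydroxylase needs the cofactor tetrahydrobiopterin, whose synthesis begins with GTP cyclohydrolase 1 (Gch1), and dihydropteridine reductase (Qdpr) regenerates it after use. The vesicular monoamine transporter VMAT2 (Slc18a2) loads dopamine into vesicles, the plasma membrane transporter DAT (Slc6a3) takes released dopamine back, and the monoamine oxidases of the outer mitochondrial membrane (Maoa and Maob) degrade it. The D2 receptor (Drd2) lets the cell body and the terminal sense released dopamine and slow firing and release.

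The stretch around the transcription start of Th, Gch1 and Slc18a2 is shown because Th and Gch1 are the synthesis genes with the lowest experiment over control ratios below, and because Th and Slc18a2 share a sequence that is uncommon among promoters. Each run holds 250 bases before and 50 bases after the annotated start, 300 bases in all, 5′ to 3′ on the gene's strand, from RefSeq on build GRCm38.p6. The cyclic AMP response element TGACGTCA, or its core TGACG where the full element is missing, is in capitals, and both strands were searched.

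Th, chr7:142899946-142900245, minus strand: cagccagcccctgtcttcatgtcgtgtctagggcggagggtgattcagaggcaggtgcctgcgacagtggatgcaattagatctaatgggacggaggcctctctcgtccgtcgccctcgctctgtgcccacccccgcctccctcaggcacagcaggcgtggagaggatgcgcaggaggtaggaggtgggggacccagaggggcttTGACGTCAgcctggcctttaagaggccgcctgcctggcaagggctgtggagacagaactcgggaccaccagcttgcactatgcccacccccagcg

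Slc18a2, chr19:59260628-59260927, plus strand: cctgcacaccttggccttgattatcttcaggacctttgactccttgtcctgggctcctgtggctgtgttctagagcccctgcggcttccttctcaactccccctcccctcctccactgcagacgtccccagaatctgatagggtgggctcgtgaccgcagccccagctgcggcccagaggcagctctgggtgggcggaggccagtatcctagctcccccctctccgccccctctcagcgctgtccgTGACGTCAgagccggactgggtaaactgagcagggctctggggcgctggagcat

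Gch1, chr14:47189364-47189663, minus strand: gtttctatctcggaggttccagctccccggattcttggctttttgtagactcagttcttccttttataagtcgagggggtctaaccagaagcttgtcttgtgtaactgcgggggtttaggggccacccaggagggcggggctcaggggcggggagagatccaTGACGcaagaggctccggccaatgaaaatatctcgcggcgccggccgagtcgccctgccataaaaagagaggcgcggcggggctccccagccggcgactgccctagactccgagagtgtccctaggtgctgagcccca

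The full element began 45 bases before the start in Th and 4 bases before it in Slc18a2, and 588 of 32851 RefSeq promoters of the same length held it (1.79%). The core, which the full element contains, stood 88 bases before the start in Gch1 and 209 bases before it in Maoa, and 20.8% of promoters held it. A further motif, AAAGGTCA, bound by orphan receptors of the Nr4a family, was found 73 bases before the start in 1 of 2 Ddc promoters and in 1.51% of all promoters. The promoters of Qdpr, Drd2 and Slc6a3 held none of these motifs. A promoter entry was matched for 8 of the 9 genes, all but Maob. These matches describe the sequence only.

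On build GRCm38, in the GENCODE M21 annotation, Th lies at chr7:142892752-142931128 on the minus strand, Ddc at chr11:11814101-11898144 on the minus strand and Gch1 at chr14:47153895-47189413 on the minus strand. Qdpr lies at chr5:45434021-45450236 on the minus strand, Slc6a3 at chr13:73536747-73578672 on the plus strand and Slc18a2 at chr19:59260896-59296012 on the plus strand. Maoa, at chrX:16619698-16687818 on the plus strand, and Maob, at chrX:16709282-16817366 on the minus strand, are neighbours that face each other tail to tail, and Drd2 lies at chr9:49340627-49408177 on the plus strand. The table gives 1 count per gene, with no split by isoform.

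Library depth ran between 116567 and 3094036 gene counts in experiment libraries and between 153770 and 2577694 in control libraries. Experiment libraries had fewer genes detected (median 7354, against 8548 in controls), a larger share of ERCC spike-in counts (median 0.421%, against 0.251%) and a larger share of mitochondrial counts (median 4.33%, against 2.72%). The transcripts that define the labelled cell type, Th, Ddc, Slc6a3 and Slc18a2, had counts in all 104 libraries. Of 9 markers of other monoamine and acetylcholine neurons 1 was expressed, Chat, at 1.29 CPM in experiment and 15.8 CPM in control neurons. Chat had counts in 2 experiment and 18 control libraries, so it was called expressed only through the control neurons, where it was higher. In the experiment group 1 library held 78.8% of the Chat counts. Dbh and Pnmt, which noradrenergic and adrenergic neurons use, had 0 counts in every library, which allows up to 0.0747 CPM in experiment and 0.0404 CPM in control neurons (3 counts of each group's total). Libraries could be ordered by their records into 7 runs, 5 of which held at least 3 libraries of each group, and by their titles and records into 2 sets. The labels call neither of these a batch.

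Levels are given as CPM, a gene's counts scaled to 1000000 gene counts in its library. A group's pooled CPM is its summed counts over its summed total, and dividing the experiment value by the control value gives a ratio whose 95% interval covers counting error only and is far narrower than the spread between neurons. The second ratio given for each gene compares unweighted means over neurons, in which a deep library counts no more than a shallow one. A gene was called lower or higher when both ratios lay at least 1.5-fold from 1 in the same direction.

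All 9 genes passed the filter on low values that 9113 genes passed, and all 9 stood below 1 by both ratios, which 45.8% of those genes did. Of the 9, 3 were lower by 1.5-fold, Th, Gch1 and Maob, against a background of 11.0% of the expressed genes. None of the 9 was higher by 1.5-fold, where the background was 7.77%. The median log2 ratio of the 9 was -0.32 by pooled CPM and -0.28 with neurons weighted equally, beside -0.03 and -0.02 over all expressed genes. Together the 9 genes took 1.41% of all gene counts in experiment neurons and 2.06% in control neurons, and Th held the largest part of that share in both groups.

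**Figure D1:**
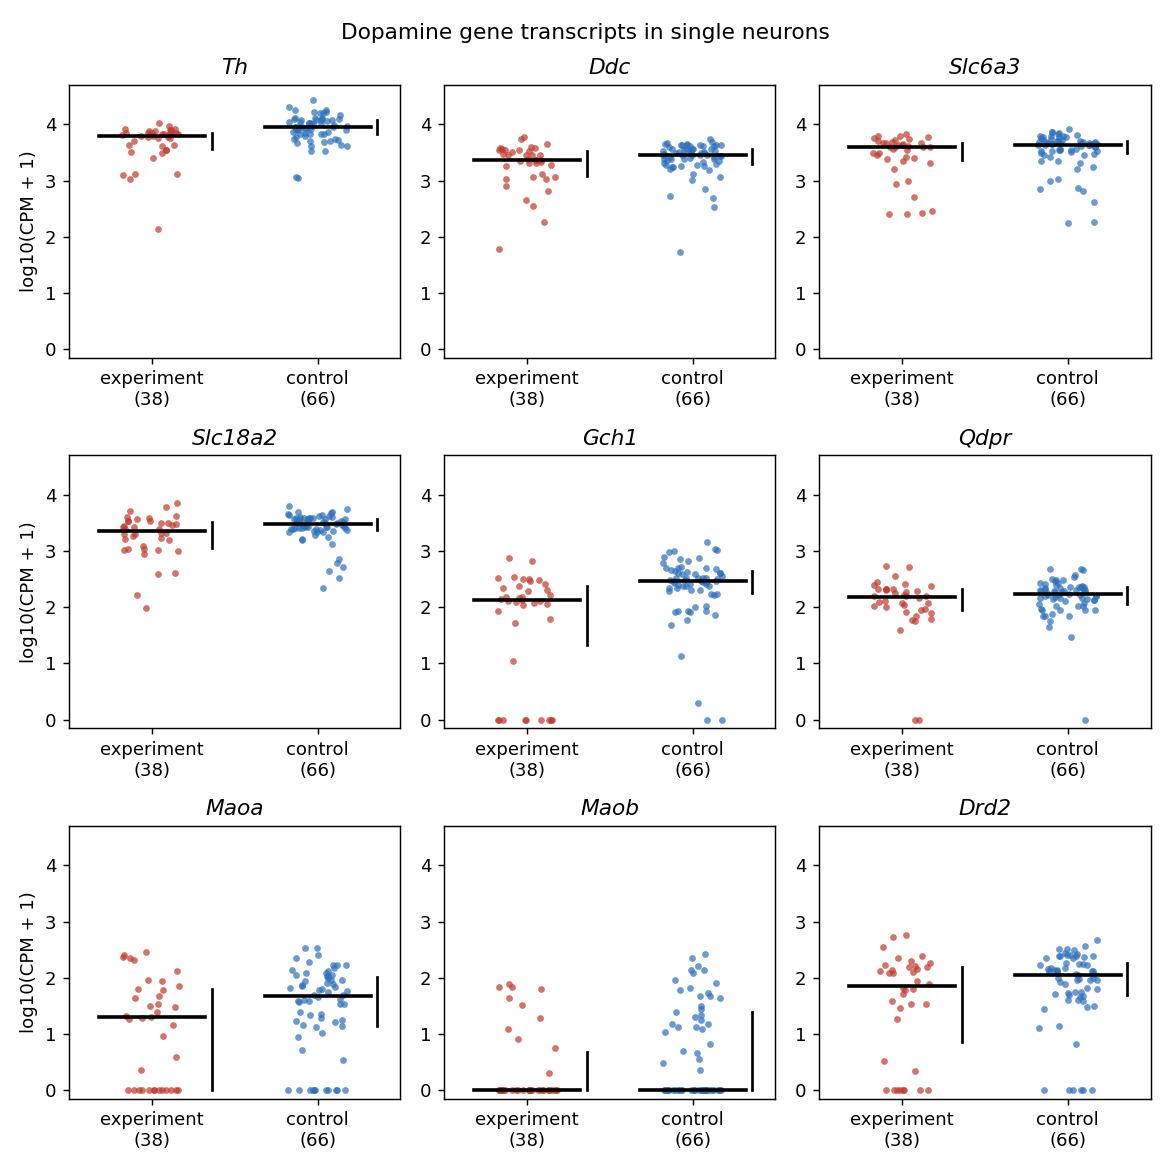
CPM of each of the 9 genes in every neuron, on an axis of log10(CPM + 1), with 38 experiment neurons left and 66 control neurons right in each panel. Each point is 1 library, the horizontal bar is the group median and the vertical bar at its side spans the quartiles. No experiment neuron reached the upper quartile of the controls for Th, and most points for Maob lie at 0 in both groups.

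Th was the most abundant of the 9 and the one whose groups overlapped least by the share of neuron pairs given below. Its level ran between 138 and 10616 CPM in experiment neurons, with a median of 6172 and quartiles of 3644 and 7069. In control neurons it ran between 1128 and 27011 CPM, with a median of 8983 and quartiles of 6616 and 11968. The ranges overlapped, but 36 of 38 experiment neurons lay below the control median, 0 lay above the control upper quartile of 11968, and 23 control neurons lay above the highest experiment neuron. Of the 2508 pairs of 1 experiment and 1 control neuron, the experiment neuron was the lower in 78.0%. Pooled Th was 5277 CPM in experiment and 9726 CPM in control neurons, a ratio of 0.543 (0.540 to 0.545), and the equally weighted ratio was 0.579. No single library decided this: with each library left out in turn the ratio ran between 0.526 (without experiment 26) and 0.572 (without control 42).

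The Th ratio was below 1 in each of the 5 record runs with at least 3 libraries of each group. It was 0.569 in run 1, 0.581 in run 2, 0.478 in run 3, 0.656 in run 4 and 0.831 in run 6. Experiment medians stood below control medians in 5 of 5 runs. A pooled ratio below 1 in all 5 runs was found for 5.85% of the expressed genes, and among the 9 genes for Th and Maob. Run 6 was nearest to 1, and there the ratio was 0.959 without experiment 27, the library with the lowest Th of all. Title set 1 gave 0.609 and title set 2 gave 0.540.

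Ddc differed less. Its level had a median of 2324 CPM in experiment neurons (59.1 to 5839) and 2871 CPM in control neurons (52.4 to 5491), and the interquartile ranges, 1194 to 3394 and 1946 to 3641 CPM, overlapped over most of their length. Pooled Ddc was 2346 CPM in experiment and 2873 CPM in control neurons, a ratio of 0.816 (0.810 to 0.823), with an equally weighted ratio of 0.853. In the 5 runs the ratio lay on both sides of 1, between 0.365 in run 3 and 1.20 in run 4. Both runs above 1 stood below 1 without 1 library, to 0.873 in run 4 without experiment 1 and to 0.928 in run 2 without experiment 43. The difference between the groups in Ddc was thus smaller than its change from run to run.

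Gch1, the entry enzyme of cofactor synthesis, was far less abundant than Th and had the second lowest ratio of the 9. Experiment neurons ran between 0 and 750 CPM with a median of 132, and control neurons between 0 and 1417 CPM with a median of 292. Gch1 was at 0 in 9 of 38 experiment and 2 of 66 control neurons, and 30 experiment neurons lay below the control median. After thinning to 400000 counts it was seen in 26 of 34 experiment and 58 of 60 control neurons, so the difference in detection stood at equal depth. Pooled Gch1 was 179 CPM in experiment and 361 CPM in control neurons, a ratio of 0.497 (0.484 to 0.510), and the equally weighted ratio was 0.465. In the libraries at or below the median ERCC share the log2 ratio of Gch1 was -0.04, and it was no longer past 1.5-fold. The ratio was 0.196, 0.429, 0.407 and 0.234 in runs 1, 2, 3 and 6 but 2.91 in run 4. Experiment 2 alone held 28.5% of the Gch1 counts of the experiment group, and without it the ratio in run 4 was 1.28 and the ratio in title set 1 was 0.477, against 0.806 with it. In run 1 the ratio was 0.318 without control 40, and in run 3 it was 0.207 without experiment 53.

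Qdpr, which recycles the cofactor, was steadier. It was detected in 36 of 38 experiment and 65 of 66 control neurons, with medians of 151 and 169.9 CPM. Pooled values were 180.1 CPM in experiment and 189 CPM in control neurons, a ratio of 0.953 (0.926 to 0.980), with an equally weighted ratio of 0.895. The ratio by run lay between 0.665 in run 2 and 1.31 in run 4, where it was 0.863 without experiment 2. An antisense gene, Gm42413, overlaps 18.6% of the exon bases of Qdpr, and the sources used here do not say whether counting used strand, so reads of the pair may not be told apart. For Slc18a2 such an antisense overlap, with Gm29261, covers 2.12% of the exon bases, and none was found for the other 7 genes.

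Over all libraries both transporters had ratios nearer to 1 than Th. Slc6a3 had a median of 3883 CPM in experiment neurons (250 to 6693) and 4355 CPM in control neurons (175 to 8212), and Slc18a2 had medians of 2249 CPM (95.9 to 7097) and 2981 CPM (215 to 6289). The pooled ratio of Slc6a3 was 0.800 (0.795 to 0.806) and that of Slc18a2 was 0.847 (0.841 to 0.853), with equally weighted ratios of 0.856 and 0.822. For each transporter 25 of 38 experiment neurons lay below the control median. By run, the ratio of Slc6a3 was 0.597, 0.945, 0.372, 1.49 and 0.515 in runs 1, 2, 3, 4 and 6. That of Slc18a2 was 0.561, 0.770, 0.349, 1.66 and 0.625 in the same runs. Both transporters were therefore lowest in run 3 and above 1 in run 4, and in title set 1 their ratios were 1.02 and 1.13. In runs 3 and 6 both stood below the ratio of Th, which was 0.478 and 0.831 there. Experiment 1 held 18.97% of the Slc18a2 counts of its group, and without it the ratio of Slc18a2 was 0.737 overall and 0.890 in title set 1. Without experiment 1 the ratio of Slc6a3 in title set 1 was 0.928.

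**Figure D2:**
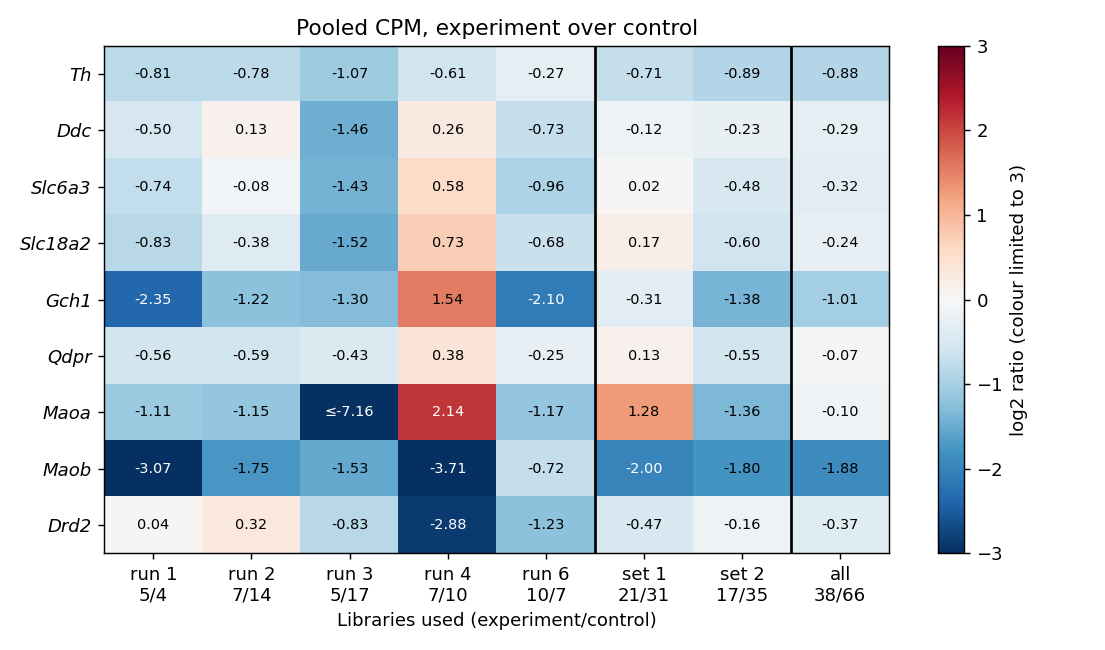
Pooled CPM in experiment neurons over that in controls, as log2, for each gene (rows) in the 5 record runs, the 2 title sets and all libraries (columns), with the libraries used of each group under each column. Blue is lower and red is higher in experiment neurons. The row of Th is below 0 in every column, most other rows turn positive in run 4, and the value of Maoa in run 3 is a bound, since no experiment library of that run had a Maoa count.

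The monoamine oxidases were sparse. Maoa had a median of 18.7 CPM in experiment neurons (0 to 283) and 45.7 CPM in control neurons (0 to 344). It was at 0 in 13 of 38 experiment and 11 of 66 control neurons, and after thinning it was seen in 23 of 34 and 52 of 60. The pooled ratio of Maoa was 0.933 (0.891 to 0.976) and its equally weighted ratio was 0.756. Experiment 1 held 22.8% of the Maoa counts of its group, and without it the pooled ratio was 0.774. The pooled ratio averaged opposite values, 2.43 in title set 1 and 0.390 in title set 2. In run 4 the ratio was 4.42, with medians of 202 CPM in 7 experiment and 17.3 CPM in 10 control neurons, and it was 7.24 without control 1. In run 3 the 5 experiment libraries had 0 Maoa counts and the 17 control libraries had 2031, at least 143-fold lower in experiment neurons with the zero set at 3 counts for the group. In runs 1, 2 and 6 the ratio was 0.462, 0.450 and 0.445, and in run 2 it was 0.114 without experiment 41. The direction of Maoa therefore differed between runs.

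Maob had the lowest ratio of the 9 and the fewest counts, 367 in experiment and 2499 in control libraries. It was at 0 in 27 of 38 experiment and 34 of 66 control neurons, so both medians were 0, and the highest neurons had 77.2 CPM in the experiment group and 267 CPM in the control group. Pooled Maob was 9.14 CPM in experiment and 33.6 CPM in control neurons, a ratio of 0.272 (0.243 to 0.303), with an equally weighted ratio of 0.387. In the libraries with at least the median number of genes detected the log2 ratio of Maob was -0.13, and it was no longer past 1.5-fold. After thinning it was seen in 10 of 34 experiment and 28 of 60 control neurons. The ratio was below 1 in all 5 runs, at 0.119, 0.298, 0.347, 0.0766 and 0.607 in runs 1, 2, 3, 4 and 6, but single libraries carried much of it. Control 40 held 22.1% of the control counts, and without it the ratio over all libraries was 0.337. All 552 Maob counts of the run 1 controls came from it, so without it experiment neurons of run 1 were at least 12.9-fold higher, with the zero set at 3 counts for the group. That bound rests on experiment 37, which held 64 of the 65 Maob counts of the experiment neurons of run 1, so that 1 count was left without it. The ratio in run 6 was 1.01 without control 33 and 0.215 without experiment 27, and that in run 2 was 0.0612 without experiment 41. In run 3 it was 0.0820 without experiment 49 and 0.562 without control 60, and in run 4 it was 0.123 without control 2. In run 4 all 43 Maob counts of the experiment neurons came from experiment 4. Within runs the Maob ratios thus rested on few neurons. Both oxidases had counts in 9 of 38 experiment and 30 of 66 control neurons, Maoa alone in 16 and 25, Maob alone in 2 and 2, and neither in 11 and 9.

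Drd2, the autoreceptor of these neurons, had a median of 70.6 CPM in experiment neurons (0 to 586) and 112 CPM in control neurons (0 to 464). It was at 0 in 8 of 38 experiment and 6 of 66 control neurons. Pooled values were 95.4 CPM in experiment and 124 CPM in control neurons, a ratio of 0.771 (0.742 to 0.801), with an equally weighted ratio of 0.874. The interquartile ranges, 6.07 to 152 and 47.5 to 179 CPM, overlapped widely. By run the ratio lay between 0.136 in run 4 and 1.247 in run 2, and in run 2 it was 0.597 without experiment 46, which held 23.6% of the Drd2 counts of its group. Over all libraries the ratio without experiment 46 was 0.612. In run 4 the 7 experiment neurons had 69 Drd2 counts, 68 of them in experiment 4, and 5 of the neurons were at 0. The low ratio of run 4 was lower still without experiment 4, which left 1 count.

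To compare levels between genes, CPM was divided by the length of the merged exons in kilobases. In experiment neurons the medians were 2611 for Th, 1124 for Slc6a3, 521 for Ddc, 430.4 for Slc18a2, 84.4 for Qdpr, 27.7 for Drd2, 21.1 for Gch1, 4.48 for Maoa and 0 for Maob, in CPM per kilobase. In control neurons they were 3799.7 for Th, 1260.0 for Slc6a3, 644 for Ddc, 571 for Slc18a2, 95.03 for Qdpr, 46.8 for Gch1, 43.9 for Drd2, 11.0 for Maoa and 0 for Maob. By this length the order was the same in both groups except for the neighbours Gch1 and Drd2. That exchange depended on the length used. Per kilobase of the longest coding transcript the median of Gch1 was 47.4 in experiment and 105 in control neurons, above the 27.7 and 43.9 of Drd2 in both groups. By that length Ddc also stood above Slc6a3 in both groups, at 1152 against 1124 in experiment and 1423 against 1260.0 in control neurons. Slc18a2 lay further below Ddc by that length, at 594 in experiment and 788 in control neurons. By merged exons Th stood above Slc6a3 in 35 of 38 experiment and 66 of 66 control neurons, with quartiles that did not overlap. By merged exons Ddc stood above Slc18a2 in only 24 of 38 experiment and 42 of 66 control neurons. That pair thus did not differ beyond its spread by this length. The quartiles of Slc6a3 and Ddc overlapped in experiment but not in control neurons, and those of every pair of neighbours from Qdpr down to Maob overlapped in both groups. The quartiles of Slc18a2 and Qdpr did not overlap in either group, and this step separates the 4 abundant genes from the 5 scarce ones.

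Ratios of counts inside a neuron do not depend on the library total. The median of Th over Slc6a3 counts was 1.65 in experiment and 2.30 in control neurons, and 29 of 38 experiment neurons lay below the control median. For Th over Ddc the medians were 2.44 and 3.31, with 30 of 38 experiment neurons below the control median, and for Th over Slc18a2 they were 2.35 and 3.28, with 28 of 38 below it. Th was thus lower relative to its downstream enzyme and to both transporters over all libraries. This did not hold within every run. For Th over Slc6a3, the experiment median over the control median was 0.825, 0.652 and 0.586 in runs 1, 2 and 4. It was 1.82 in run 3 and 1.62 in run 6. For Th over Ddc it was 0.736, 0.699 and 0.609 in runs 1, 2 and 4 but 1.10 and 1.36 in runs 3 and 6. For Th over Slc18a2 it was 0.935, 1.01, 1.34, 0.502 and 1.33 in runs 1, 2, 3, 4 and 6. Relative to Gch1, Th had medians of 32.9 in the 29 experiment and 30.9 in the 64 control neurons with a Gch1 count, and by run the experiment median over the control median lay between 0.325 in run 4 and 2.91 in run 6. Slc18a2 over Slc6a3 had medians of 0.621 and 0.674, and Ddc over Slc6a3 had medians of 0.702 and 0.661. Of the summed counts of Th, Ddc, Slc6a3 and Slc18a2, Th made up a median of 39.97% in experiment and 48.2% in control neurons, and it was the largest of the 4 in 34 of 38 and 64 of 66 neurons.

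**Figure D3:**
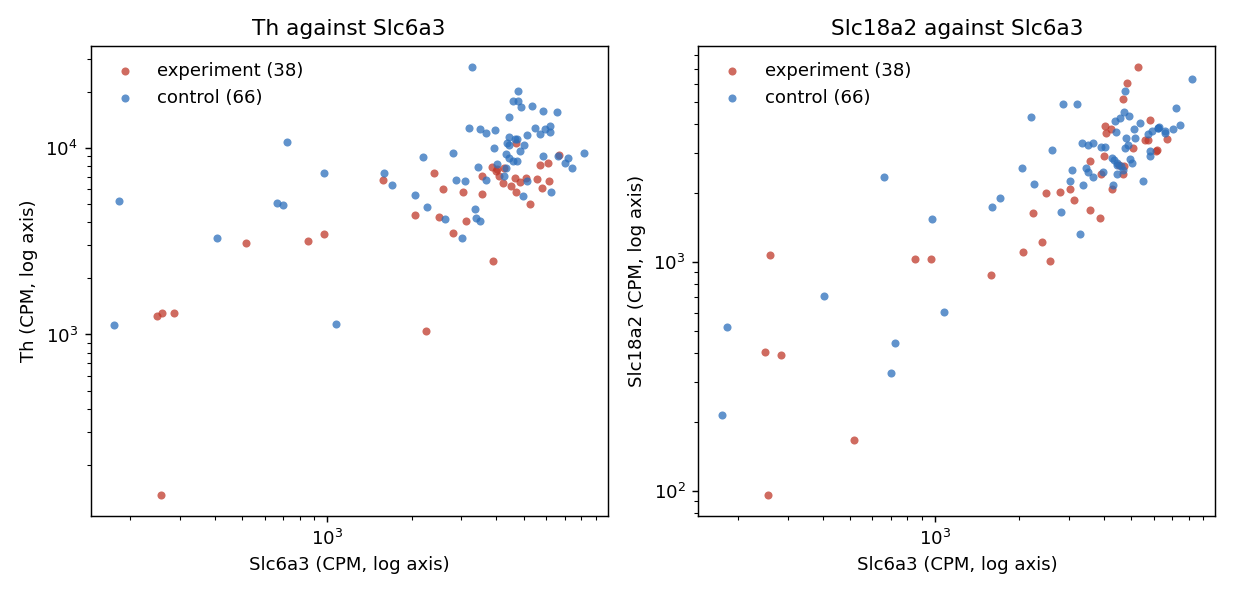
Th (left) and Slc18a2 (right) against Slc6a3 in CPM, both axes logarithmic, 1 point for each of 38 experiment and 66 control neurons. Slc18a2 follows Slc6a3 in both groups, and control neurons fill the region of Th above the highest experiment neuron at 10616 CPM.

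From neuron to neuron, the Spearman correlation of Slc6a3 with Slc18a2 was 0.87 over 38 experiment and 0.66 over 66 control neurons, and it was 0.86 and 0.85 in the experiment neurons of title sets 1 and 2 and 0.77 and 0.46 in the control neurons. All correlations here are descriptions over neurons that share library preparation, runs and the common denominator of CPM. Th with Slc6a3 gave 0.68 in experiment and 0.52 in control neurons, and Th with Gch1 gave 0.42 and 0.41. Th with Ddc gave 0.47 and 0.28 but only 0.08 and -0.09 within title set 2. Within title set 2 of the controls Th with Slc18a2 gave 0.04, Slc6a3 with Gch1 gave 0.10 and Slc18a2 with Gch1 gave 0.49, above the transporter pair. The transporter pair was thus the closest in experiment neurons and over all control neurons, but within neither control set, and the synthesis genes followed the transporters unevenly. Qdpr stood outside this group, with -0.26 against Th in experiment and 0.01 in control neurons, and its highest correlation in experiment neurons was with Maob (0.38, against 0.28 in controls). Drd2 followed Th in experiment neurons (0.59) and less so in control neurons (0.17), and that difference was not tested.

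**Figure D4:**
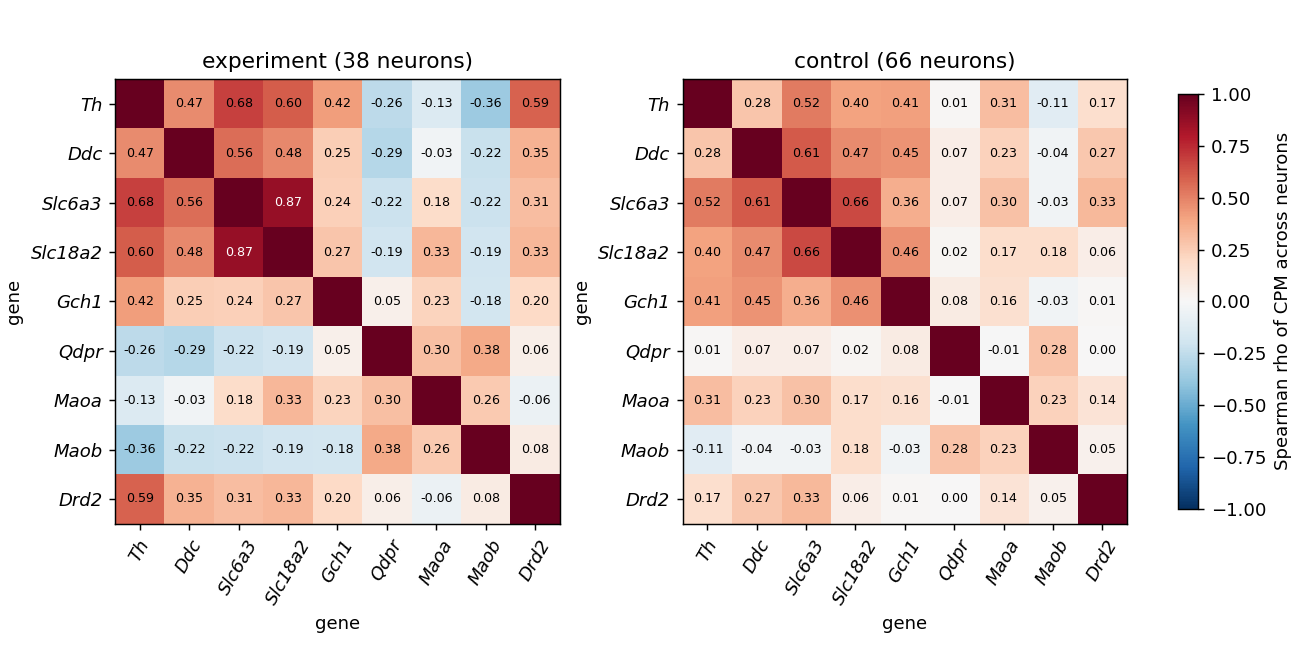
Spearman correlation of CPM for each pair of the 9 genes, over 38 experiment neurons (left) and 66 control neurons (right). Th, Ddc, Slc6a3 and Slc18a2 form a block of positive values in both groups, between 0.47 and 0.87 in experiment and between 0.28 and 0.66 in control neurons.

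Markers of glia moved with several of these genes. The summed CPM of the astrocyte, oligodendrocyte and microglia marker lists had a median of 2249.9 in experiment neurons (77.7 to 18622) and 1418 in control neurons (452 to 10386), and 9 of 11 expressed astrocyte markers, of 12 listed, were higher by 1.5-fold in experiment neurons. Of the oligodendrocyte markers 1 of 6 expressed was higher and of the microglia markers 2 of 6, with 0 lower in any of these 3 lists. Over all expressed genes 7.77% were higher and 11.0% were lower by 1.5-fold. Of the glutamate and GABA neuron markers 4 of 7 expressed were higher, of the oligodendrocyte precursor markers 1 of 2 was lower, and no blood or vessel marker was expressed. Among the higher markers, Gata3 of the GABA list had counts in 18 of 38 experiment and 13 of 66 control neurons. Gjb6 of the astrocyte list had counts in 11 of 38 and 11 of 66. Both thus passed the filter on low values only through the experiment neurons, where they were higher. The defining astrocyte genes Gfap and Aqp4 were at 0 in most libraries, with counts in 11 and 14 of 38 experiment and in 17 and 18 of 66 control neurons. The summed glial level correlated with Th at -0.38 in experiment and -0.36 in control neurons, with Ddc at -0.46 and -0.56, with Gch1 at -0.42 and -0.40 and with Slc6a3 at -0.27 and -0.53, while Qdpr gave 0.36 and 0.20 and Maob 0.23 and 0.15. Experiment 27, with the lowest Th of all libraries (138 CPM), had the highest summed glial level (18622 CPM). Without the 25% of libraries highest in these markers the log2 ratio was -0.79 for Th, -1.22 for Gch1 and -1.88 for Maob, all still past 1.5-fold. It was -0.04 for Ddc and -0.02 for Slc18a2 in those libraries, against -0.29 and -0.24 in all. The part of glial transcripts in the differences that shrank was not tested.

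All 9 genes had a count in 7 of 38 experiment neurons (18.4%) and 28 of 66 control neurons (42.4%). This detection was read without thinning, and experiment libraries had fewer genes detected in general (median 7354, against 8548). Maob, the sparsest of the 9, was at 0 in 27 experiment and 34 control neurons. Th, Ddc, Slc6a3 and Slc18a2 all lay below the control lower quartile in 9 of 38 experiment and 9 of 66 control neurons. Th alone of these 4 lay below it in 6 experiment and 4 control neurons. Gene counts per library hardly followed the level of Th (correlations with depth of -0.13 in experiment and 0.05 in control neurons). The correlations with depth were further from 0 for some sparse genes. They were -0.24 and -0.07 for Drd2, -0.04 and 0.21 for Maob and 0.18 and 0.18 for Maoa, in experiment and control neurons. The number of genes detected correlated with Ddc at 0.10 in experiment and 0.48 in control neurons, with Slc6a3 at -0.07 and 0.38 and with Drd2 at 0.29 and 0.38.

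The rest of the pathway was read from lists of related genes. Beside their counts stand the shares over all expressed genes, 11.0% lower and 7.77% higher by 1.5-fold. Of 8 cofactor genes 6 were expressed and 2 of these were lower by 1.5-fold, Gch1 and Pcbd1, a pterin dehydratase that acts in cofactor recycling. Pcbd1 was 41.1 CPM in experiment and 99.6 CPM in control neurons, with 32 of 38 experiment neurons below the control median and a ratio below 1 in 5 of 5 runs. Pts and Spr, the enzymes between Gch1 and the finished cofactor, had pooled ratios of 0.904 and 0.816 and were not past 1.5-fold. Their equally weighted ratios were 0.825 and 1.01, so Spr was not lower by both. Spr had counts in 17 of 38 experiment and 38 of 66 control neurons. Of 8 transport genes 5 were expressed and 0 were past 1.5-fold in either direction. Among them Slc10a4, a vesicular orphan transporter, was 1511 CPM in experiment and 1978 CPM in control neurons, and Sv2c, a vesicle glycoprotein, was 708 and 598 CPM.

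All 8 breakdown genes were expressed, with 1 lower (Maob) and 1 higher by 1.5-fold, near the shares of all expressed genes (11.0% and 7.77%). The higher one was Aldh1a1, which oxidises the aldehyde that monoamine oxidase makes from dopamine and also marks the ventral tier of the nigra. It was 1568 CPM in experiment and 709.8 CPM in control neurons, but the medians were 248 and 230.3 CPM, and the ratio differed between title set 1 (0.878) and title set 2 (5.26). Of 5 dopamine receptor genes Drd2 was the expressed one, and Drd4 had 0 counts in all libraries.

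Of 10 genes that act with the receptor or at the terminal 8 were expressed, with 1 lower and 1 higher by 1.5-fold, again near those shares. Rgs8, a regulator of G protein signalling, was lower at 52.5 CPM in experiment against 107 CPM in control neurons, below 1 in 5 of 5 runs. Arrb2, an arrestin, was higher at 19.1 against 10.2 CPM. Of 10 transcription factors listed for dopaminergic neurons, not all of them markers of that cell type, 7 were expressed. Foxa2 (18.7 CPM in experiment and 43.7 CPM in control neurons) and Lmx1b (11.3 and 21.8 CPM) were lower by 1.5-fold. Nr4a1 (96.9 and 50.8 CPM) was higher by 1.5-fold. Lmx1b had counts in 8 of 38 experiment and 41 of 66 control neurons, so only the control neurons brought it past the filter on low values. In the experiment group 1 library held 38.5% of the Lmx1b counts. Its ratio was below 1 in 3 of 5 runs, at 0.285 in title set 1 and 0.757 in title set 2. For Foxa2 the ratio of title set 1 was 1.17 and that of title set 2 was 0.108. Nr4a2 and Pitx3, which drive Th and Slc6a3 during development, had pooled ratios of 0.765 and 0.768. En1 went the other way, with a pooled ratio of 1.22 and an equally weighted ratio of 1.30. Of the 7 expressed factors, 4 stood below 1 and 2 above 1 by both ratios, beside 45.8% of all expressed genes below 1 by both.

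**Figure D5:**
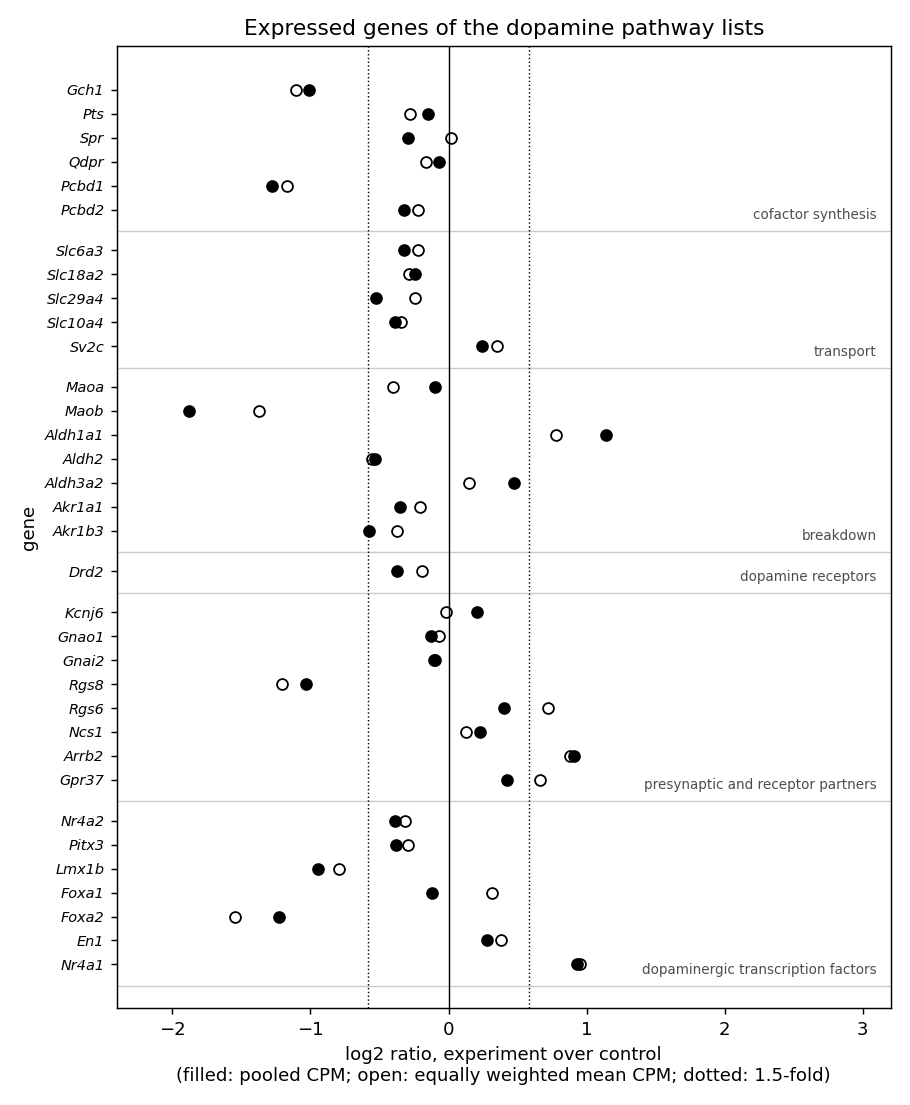
log2 ratio, experiment over control, of expressed genes in the 6 dopamine pathway lists, by pooled CPM (filled) and by equally weighted mean CPM (open), with dotted lines at 1.5-fold. Both symbols of Gch1, Pcbd1, Maob, Rgs8, Lmx1b and Foxa2 lie left of the lines, and both of Aldh1a1, Arrb2 and Nr4a1 lie right of them.

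Across the 66 control neurons the expressed genes whose CPM followed Th most closely by Spearman correlation were Trpc6 (0.64), Bsg (0.62), Tagln3 (0.62), Atp6v0b (0.60) and Rap1gds1 (0.56). In the control neurons of title set 1 they gave 0.56, 0.67, 0.62, 0.61 and 0.59, and in those of title set 2 0.60, 0.45, 0.43, 0.46 and 0.29. Over the 38 experiment neurons the same genes gave 0.45, 0.40, 0.40, 0.38 and 0.54. None of these 5 was past 1.5-fold between the groups, with pooled ratios between 0.759 for Tagln3 and 1.03 for Trpc6. Among the 5 genes nearest to Slc6a3 were Atp1b1 (0.71), Slc10a4 (0.68), Tspan3 (0.67) and Chrna4 (0.66), and over experiment neurons these 4 gave 0.54, 0.68, 0.01 and 0.56. In the control neurons of title set 1 these 4 gave 0.80, 0.80, 0.77 and 0.82, and in those of title set 2 0.58, 0.45, 0.48 and 0.44. Atp1b1 encodes a subunit of the sodium pump and Chrna4 a nicotinic receptor subunit. For Slc18a2 the nearest was Slc6a3 itself (0.66), ahead of Cyp51 (0.62), Atp6ap2 (0.62), Tspan3 (0.61) and Atp1b1 (0.58). For Drd2 the nearest were Diras1 (0.58), Spin2c (0.54), Sipa1 (0.53), Ttc27 (0.52) and Cd47 (0.51), and over experiment neurons these gave -0.17, 0.01, -0.21, 0.10 and 0.18. The 4 named control neighbours of Slc6a3 followed it in experiment neurons except Tspan3, and those of Drd2 did not exceed 0.18. All these neighbours were picked as the highest over control neurons, so lower values over experiment neurons are partly fixed by that choice. The difference between the groups in these correlations was not tested.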

How the data were processed

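RNA taken up from single neurons became cDNA by Smart-seq2 and sequencing libraries by the HyperPlus kit, as the labels' protocols say. What the authors deposited is 1 table of counts, whole reads for each gene symbol in each of 104 libraries. The submitters' processing notes list STAR 2.5.3a, featureCounts 1.5.3 and build mm10. The gene annotation, whether counting used strand, and how multiply mapping reads were treated are not given in the sources used.

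Of its rows 45808 were genes and 92 were ERCC spike-ins, which entered no library total. All libraries passed the minimum of 50000 gene counts and 1000 detected genes, so 0 were removed. No 2 libraries had identical counts. Groups were read from the titles. Title set 1 held 21 experiment and 31 control libraries and title set 2 held 17 and 35. The record runs follow breaks in the order of the records. They held 5 experiment and 4 control libraries in run 1, 7 and 14 in run 2, 5 and 17 in run 3, 7 and 10 in run 4, 1 and 14 in run 5, 10 and 7 in run 6, and 3 and 0 in run 7. Runs 5 and 7 held too few libraries for a ratio of their own.

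Pooled CPM carries an exact Poisson interval and its ratio an exact binomial interval at 95%. Reads have no molecular identifiers, so both cover counting error only. A group sum under 3 counts was raised to 3 for ratios. Expressed genes had a pooled CPM of at least 10 and a count in 25% of the libraries of a group. That share was read in either group, so a gene could pass through only the group where it was higher. Detection was also read after thinning each library to 400000 counts, for which 4 experiment and 6 control libraries were too shallow. Because each library is 1 neuron and no animal is named, no test across libraries was run.

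The 9 genes and the gene lists were chosen with earlier results of these data known. Named beside the 9 are pathway genes, by default the 3 of a list furthest from 1, and the 5 genes nearest in correlation to Th, Slc6a3, Slc18a2 and Drd2. Pts, Spr, Nr4a2 and Pitx3 were added for their roles after their values were seen. En1 was added after its values were seen because it went the other way, and Gjb6 because of its detection. Some genes of the lists and of the nearest 5 are not reported here, also in the figures, but count in the totals. Alternatives were other scalings, other weightings of libraries, equal depth, single sets and libraries left out. The scripts were tested on simulated data and used Python 3.11.15, NumPy 2.4.6, pandas 2.3.3, SciPy 1.17.1, Matplotlib 3.10.9, R 4.3.3 and edgeR 4.0.16, the last for scaling factors. Exons came from GENCODE M21.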

Additional observations from a re-analysis of the deposited data

How the results depend on the processing

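Th stood below control in 22 of 22 alternatives (log2 ratio -1.63 to -0.54), as did Ddc (-1.04 to -0.04), Gch1 (-2.13 to -0.04) and Drd2 (-1.12 to -0.15), and Maob in 21 of 21 (-2.63 to -0.13), its medians of 0 giving no ratio of medians. Slc6a3 and Slc18a2 stood below control in 21 of 22, the exception being title set 1 (0.02 and 0.17). Qdpr did so in 19 of 22 (-0.82 to 0.26) and Maoa in 16 of 22 (-1.69, with the bound of run 3 in it, to 1.28 in title set 1). Gch1 was -0.04 in libraries at or below the median ERCC share, and Maob -0.13 in libraries with at least the median number of genes detected. Relative to the median of all expressed genes, the number below it was 22 of 22 for Th and Drd2, 21 for Ddc and Gch1, 20 for Slc18a2, 18 for Slc6a3, 16 for Maoa, 15 for Qdpr and 21 of 21 for Maob. The number of the 9 past the fold threshold was 2 to 4 under each alternative but 1. The share of expressed genes past it was 16.6% in title set 1, 17.1% at or below the median ERCC share and 15.8% with at least the median number of genes detected, where 2 of the 9 were, and 17.5% in title set 2, where 4 were. It was 22.05% at the lower threshold tried, where 3 were, and 3.80% at 2-fold, where 2 were. Scaled to ERCC counts it was 7, all but Qdpr and Drd2, where 36.5% of expressed genes were lower, and the median log2 ratio of the 9 was -1.07 where that of all expressed genes was -0.78. The mean of log2(CPM + 1) moved the median of all genes to -0.38 and the ratio of medians moved it to -0.26. In title set 1 the genes lower were Th and Maob, with Maoa higher, and in title set 2, as without run 4, Maoa joined Th, Gch1 and Maob. At 2-fold Gch1 and Maob were lower. Leaving out each record run, or the 3 highest libraries of each group, was chosen after seeing the data. Counts of genes under other weightings were not computed, since both weightings enter the call. No paired analysis was possible because the results come from no test and the numbers in the titles do not pair neurons. Depth limits the genes that libraries held at 0, which were Gch1, Qdpr, Maoa, Maob and Drd2.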
